A study of Rattus norvegicus with 6 samples.

Results

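PIWI-interacting RNA (piRNA) probes that gave a signal on every array and that were brighter in islets of Goto-Kakizaki (GK) rats than in islets of Wistar rats make up the set described here. The rule took the 7721 of 39727 piRNA probes flagged as well above background on all 6 arrays, and subtracted from the log2 processed signal of each array its median over these probes. It kept the probes whose lowest GK value lay at least 0.5 above the highest Wistar value. That gave 46 probes, and leaving out DQ732700 and DQ746748 by name left 44. The 44 piRNAs were thus chosen by the same GK and Wistar signals that are compared below, so the strain difference is described and not tested.

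The arrays held islet total RNA from 3 Wistar and 3 GK samples, all of rats aged 3 months, with 1 sample per array. Per the labels the islet RNA samples were extracted individually. The Wistar strain was the control, and GK rats are a non-obese strain with diabetes that was bred from Wistar stock. The labels name no treatment. RNA was labelled at its 3' end with the dye Cy3, and each piRNA had 1 spot per array. Arrays Wistar 1, Wistar 2, Wistar 3 and GK 1 were scanned together and are called slide 1, while GK 2 and GK 3 were scanned together later and are called slide 2. Strain and slide therefore overlap in part, where the slide is inferred from the scan. On slide 1, Wistar 1, 2 and 3 held array positions 1, 2 and 3 and GK 1 held position 4. On slide 2, GK 2 held position 3 and GK 3 position 4. Between 9699 and 14373 piRNA probes were well above background per array, and 0 spots were saturated.

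piRNAs are small RNAs that are loaded into PIWI proteins, a branch of the Argonaute family. In germ cells they guide these proteins to transposon transcripts and take part in silencing them, and many arise from long precursor transcripts that are cut into series of small RNAs. In body tissues such as the islet, which holds the insulin-producing beta cells, much less is known of them. The files name each piRNA by its GenBank accession, and its sequence and genome position were not used here. Of the names looked up among the 159 other probes of the array, 0 of 13 islet markers, 0 of 7 exocrine and duct markers and 0 of 12 piRNA pathway genes had a probe under a matched name. Only 61 of the 159 were matched to a gene symbol, so a gene of these lists could have a probe that was missed. The makeup of the islet samples was not tested. In RNA from whole islets, a change in the number of cells of a type and a change in RNA per cell cannot be told apart.

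Over the 44 piRNAs the median log2 difference, GK minus Wistar, was 1.20, against -0.014 over all 7721 probes always detected. The differences ran from 0.73 to 3.00, or from 1.66-fold to 7.98-fold with a median of 2.30-fold. A fold of at least 2 was reached by 33 of the 44, against 2.46% of all probes always detected, at least 3 by 9 (0.389%) and at least 4 by 6 (0.168%). These shares follow from the rule and are given as a description. The standard deviation over the 3 GK arrays had a median of 0.24 among the 44 and 0.30 among all, and over the 3 Wistar arrays 0.27 and 0.30. The rule favours probes with little spread within a strain, so these lower medians are partly built in. In the opposite direction 46 probes met the same rule, which is 0.596% of the 7721 and the same share as upward.

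The largest gap between the strains belonged to DQ623346. DQ623346 had scaled log2 signals of -1.42, -1.45 and -1.45 on Wistar 1, 2 and 3 and of 0.15, 1.46 and 1.72 on GK 1, 2 and 3. Its Wistar values were almost equal, and GK 1 lay well below the other GK arrays while still standing 1.57 above the highest Wistar array. The log2 difference was 2.55 (SE 0.42), or 5.86-fold. In unscaled scanner units it read 26.1, 21.6 and 22.7 in Wistar and 70.3, 148 and 154 in GK.

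DQ624208 followed, at 0.69, 0.58 and 0.096 in Wistar and 2.14, 2.95 and 3.24 in GK, a log2 difference of 2.32 (SE 0.35) and a fold of 4.99. DQ745279 read 0.95, 0.037 and -0.078 in Wistar, where the first array was the highest, and 2.00, 3.04 and 3.39 in GK, with a difference of 2.51 (SE 0.45), or 5.70-fold. DQ747504 was at 1.46, 1.07 and 0.48 and 2.41, 3.29 and 3.47 in the same order of arrays, a difference of 2.05 (SE 0.39) and 4.15-fold. In all 3 of these piRNAs GK 1 was the lowest GK array and Wistar 1 the highest Wistar array. DQ752457 had the largest difference of the 44, at 3.00 (SE 0.61) or 7.98-fold, with Wistar values of -1.41, -2.10 and -2.77 and GK values of -0.40, 1.63 and 1.47. It was also among the most variable within GK, where its values spread over 2.03. DQ752457 was well above background on Wistar 3 with a processed signal of 9.12, where the lowest such signal of that array was 8.07.

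The other piRNAs among the 10 widest gaps were steadier within GK. DQ761006 gave -0.44, -0.46 and -1.31 in Wistar and 0.70, 0.76 and 1.08 in GK, a difference of 1.58 (SE 0.31) and 2.99-fold. DQ742514 gave 0.0042, -0.074 and -0.65 and 1.67, 1.07 and 1.51, a difference of 1.66 (SE 0.30) and 3.16-fold, and here GK 1 was the highest GK array. DQ604854 gave 4.14, 3.99 and 3.63 and 5.23, 5.31 and 5.95, a difference of 1.57 (SE 0.30) and 2.98-fold. DQ604854 combined a wide gap with brightness, as it ranked 503 of 7721 by its mean over the 6 arrays. DQ623418 and DQ624964 complete the 10 and were dim, and their values are given with the dim piRNAs.

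By mean signal the 44 spread over the whole range, with 9, 13, 13 and 9 in 4 classes of equal size, from the dimmest to the brightest of the 7721 probes. Their median scaled signal over the 6 arrays was -0.039, against -0.031 for all. Among the 100 brightest probes always detected were 3 of the 44 (6.82% against 1.30% of all), and among the 1000 brightest 4 (9.09% against 12.95%).

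The brightest was DQ626089, with processed signals of 43621, 27049 and 29673 in Wistar and 56103, 65578 and 60930 in GK. On the scaled log2 scale these were 9.29, 8.84 and 8.90 and 9.79, 10.25 and 10.35, a difference of 1.12 (SE 0.27) or 2.17-fold. DQ603795 had processed signals of 29241, 23199 and 19537 and 39147, 45907 and 43184, and scaled values of 8.71, 8.62 and 8.30 and 9.27, 9.74 and 9.85. Its difference was 1.08 (SE 0.27), or 2.11-fold. DQ743986 had processed signals of 14431, 9454 and 8429 and 18789, 17692 and 17536, and scaled values of 7.70, 7.33 and 7.08 and 8.21, 8.36 and 8.55. Its difference was 1.01 (SE 0.26), or 2.01-fold. These 3 piRNAs ranked 23, 32 and 98 of 7721, and on the scaled log2 scale GK 1 was the lowest GK array in each. In processed signal GK 1 was instead the highest GK array for DQ743986. Wistar 1, the brightest Wistar array for each of them, also had the highest median signal of the 6 arrays. After DQ604854 in brightness came DQ752076, which ranked 1277 with 2.36, 1.73 and 2.05 in Wistar and 2.86, 2.90 and 3.53 in GK, a difference of 1.05 (SE 0.30) and 2.07-fold.

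The dimmest members had Wistar signals near the detection limit. DQ623418 had processed signals of 14.5, 12 and 12.3 in Wistar and 42.3, 32.1 and 19.7 in GK, where the lowest signal called well above background was 13.4, 9.25 and 8.07 on Wistar 1, 2 and 3. Its scaled values were -2.26, -2.30 and -2.33 and -0.58, -0.74 and -1.25, a difference of 1.44 (SE 0.26) or 2.71-fold. GK 3, not GK 1, was its lowest GK array. DQ615153 had scaled values of -2.04, -1.90 and -2.27 and -0.99, -0.35 and -1.24, a difference of 1.21 (SE 0.30) and 2.31-fold. DQ624964 had -1.96, -2.10 and -2.08 and -0.98, -0.87 and -0.62, a difference of 1.22 (SE 0.23) and 2.33-fold. The 3 GK values of DQ624964 lay within 0.36 of each other, while those of DQ615153 spread over 0.89. DQ617840 had -1.43, -1.43 and -2.36 and -0.76, -0.78 and -0.89, a difference of 0.93 (SE 0.32) and 1.91-fold, with Wistar 3 far below the other Wistar arrays. DQ734788 had -1.84, -1.67 and -1.84 and -0.37, -0.97 and -0.78, a difference of 1.07 (SE 0.26) and 2.11-fold, with GK 1 the highest GK array.

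Across all 44, the processed signal was under 2 times the lowest detected piRNA signal for 14, 7 and 8 piRNAs on Wistar 1, 2 and 3, and for 0 on each GK array. Spots stood above their local background by a median factor of 4.29, 3.73 and 3.19 in Wistar and 5.47, 5.60 and 5.62 in GK. The rule put every scaled GK value above every scaled Wistar value, so the direction of both contrasts is largely built in. With normexp background correction in place of the scanner's subtraction, the median difference over the 44 was 0.54 in place of 1.20, and 7 of the 44 still met the rule. These 7 were DQ623346, DQ624208, DQ761006, DQ604854, DQ742514, DQ745279 and DQ747504. The normexp setting included an offset of 50. The median processed signal of the 44 was 50.7, 34.3 and 31.4 in Wistar and 84.7, 91.7 and 95.2 in GK. Smaller log2 differences of dim spots under normexp are therefore partly built in. In the bright DQ626089, DQ603795 and DQ743986 the differences were 1.00, 0.94 and 0.90 in place of 1.12, 1.08 and 1.01. The part of the offset in the lower median was not tested.

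The GK values lay closest together in DQ617840, given above with the dim piRNAs, and in DQ614306, DQ734235 and DQ737819. DQ614306 had GK values of -0.32, -0.31 and -0.19 against -1.45, -0.97 and -1.48 in Wistar, a difference of 1.03 (SE 0.25) and 2.04-fold. DQ734235 had 0.88, 0.83 and 0.74 in GK against 0.21, -0.19 and -0.35, a difference of 0.93 (SE 0.25) and 1.91-fold. DQ737819 had 1.70, 1.54 and 1.59 in GK against 0.98, 0.27 and -0.014, a difference of 1.20 (SE 0.31) and 2.30-fold. These 4 had the narrowest GK range, from 0.13 to 0.16, whereas their Wistar values spread more widely. DQ616367 was narrow in both strains, with -0.068, 0.0075 and -0.002 in Wistar and 0.77, 0.97 and 0.87 in GK, a difference of 0.89 (SE 0.22) and 1.85-fold. DQ608794 spread more, over 0.26 in Wistar and 0.41 in GK, with -1.39, -1.65 and -1.55 in Wistar and -0.70, -0.29 and -0.29 in GK, a difference of 1.11 (SE 0.24) and 2.15-fold.

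Just inside the threshold of 0.5 lay DQ752076, DQ626089, DQ758562 and DQ611248, with gaps of 0.505, 0.502, 0.501 and, at the threshold itself, 0.50 between the lowest GK and the highest Wistar value. DQ611248 had -0.12, 0.015 and -0.58 in Wistar and 0.51, 0.66 and 1.06 in GK, a difference of 0.97 (SE 0.28) and 1.96-fold. DQ758562 had 1.82, 1.35 and 1.43 in Wistar and 2.32, 3.48 and 3.87 in GK, a difference of 1.69 (SE 0.42) and 3.22-fold, a narrow gap beside a large mean difference. Just outside lay DQ764997, DQ616242, DQ747263 and DQ605572, with gaps of 0.498, 0.497, 0.493 and 0.492 and folds of 2.41, 1.93, 2.25 and 2.06. Values of the strains did not overlap, with GK above, for 581 probes or 7.52% of the 7721, so the 44 are the upper end of a larger group. The piRNAs left out by name had gaps of 1.68 for DQ732700 and 1.79 for DQ746748, both wider than that of DQ623346. Their differences were 2.81 (SE 0.44) and 2.08 (SE 0.23).

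A second description concerns how the GK arrays differed among themselves, which bears on the slide. GK 1 was the lowest GK array for 33 of the 44 piRNAs (75% against 39.9% of all 7721), GK 2 for 6 (36.7%) and GK 3 for 5 (23.4%). Among the Wistar arrays Wistar 1 was the highest for 29 of the 44 (65.9% against 43.5% of all), Wistar 2 for 12 and Wistar 3 for 3 (6.82% against 34.2%). Within slide 1 the median difference of GK 1 from the Wistar mean was 1.03 over the 44, and GK 2 and GK 3 differed from the Wistar mean by a median of 1.24. With slide as a block, the fit rests on the same contrast of GK 1 with the Wistar arrays and gave the same 1.03. Over all 7721 probes the medians were -0.036 for GK 1 and 7.3e-05 for GK 2 and GK 3. By the rule, each of the 44 was above every Wistar array on GK 1, the GK array that shared the Wistar arrays' slide. The differences from the Wistar mean were 0.54 to 1.92. This contrast rests on a single GK array, at position 4, where no Wistar array lay. Within slide 1, strain and array position therefore cannot be told apart.

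In 31 of the 44 GK 1 lay within 0.5 of the mean of GK 2 and GK 3, as it did in 63.5% of all probes. It lay at least 0.8 below that mean in 8 and at least 0.8 above it in 0. Among all 7721 probes GK 1 lay that far below in 7.1% and that far above in 9.34%. The 8 were DQ623346, DQ624208, DQ745279, DQ752457, DQ747504, DQ620480, DQ744356 and DQ758562, a grouping made after their values were seen. DQ752457 exceeded its Wistar mean by 1.69 on slide 1, in GK 1, and by 3.65 on slide 2. DQ623346 exceeded it by 1.59 and 3.03, and DQ758562 by 0.79 and 2.14. DQ732700, left out of the set by name, differed from the Wistar mean by 1.78 on GK 1 and 3.33 on GK 2 and GK 3. DQ620480 had -1.22, -0.99 and -2.14 in Wistar and -0.053, 0.53 and 1.00 in GK, with 1.40 on slide 1 and 2.22 on slide 2, and a fold of 3.85 in all. These piRNAs include all 6 with a fold of at least 4, but a high value on GK 2 or GK 3 raises both the fold and this gap by construction. In DQ744356, described below, GK 1 and GK 2 were close and GK 3 alone was high, on a spot marked as an outlier. Whether the gap in the others follows the slide or the animals cannot be told apart, because slide 2 held no Wistar array.

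The opposite order was seen in DQ734788, DQ765901, DQ623418 and DQ731854, where GK 1 exceeded the mean of GK 2 and GK 3 most. DQ765901 had -1.14, -1.57 and -1.57 in Wistar and 0.17, -0.21 and -0.31 in GK, with 1.60 on GK 1 and 1.17 on GK 2 and GK 3, and a fold of 2.48 in all. DQ731854 had 0.55, 0.27 and -0.031 and 1.52, 1.11 and 1.16, with 1.26 and 0.87 by slide and a fold of 2.01. For DQ734788 the values by slide were 1.41 and 0.91, and for DQ623418 1.72 and 1.30. In these 4 piRNAs the array that shared a slide with the Wistar arrays carried the larger difference.

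DQ744354 and DQ744356 were the only members whose accession numbers lay within 3 of each other. DQ744354 had -0.47, -0.79 and -1.08 in Wistar and 0.65, 0.44 and 0.46 in GK, a difference of 1.30 (SE 0.26) and 2.46-fold, with little spread in GK. DQ744356 had -1.58, -1.69 and -1.93 in Wistar and -0.91, -0.72 and 2.50 in GK, a difference of 2.02 (SE 0.85) and 4.06-fold. Its mean was set by GK 3, where the processed signal was 265 against 33.6 on GK 1 and 32.6 on GK 2. It was the only one of the 44 with a spot marked by the scanner software as an outlier (2.27% against 0.492% of all 7721). With the marked spot left out the difference of DQ744356 was 0.92, the same as without GK 3, so the mark was on GK 3. DQ744355, between the pair, was well above background on 0 of the 6 arrays.

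Probes with accession numbers near those of the members were read beside them. Always detected probes within 3 of a member by accession, and not members themselves, numbered 35 beside 25 of the 44. Their median log2 difference was 0.0034, with quartiles of -0.23 and 0.31, against -0.017, -0.31 and 0.29 for the 7677 probes outside the set. Of the 35, 18 were higher in GK on average and 0 met the rule. A few stood nearer to the member. DQ615152, next to DQ615153, had a difference of 1.10 with a gap of 0.17, DQ760959 near DQ760956 had 0.91 with a gap of 0.22, and DQ748052 next to DQ748053 had 0.71 with a gap of 0.43. Other neighbours went the opposite way, such as DQ760954, at -2.92 beside DQ760956, and DQ737820, at -1.44 beside DQ737819. These 5 neighbours were picked after their values were seen. The 44 held 21 accessions of the DQ6 series (47.7% against 39.2% of all) and 23 of the DQ7 series.

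The place of the spots on the array was a property that the rule did not use. Each array has 532 rows and 85 columns, and the layout is the same on all 6. Split into 4 bands of rows from top to bottom, the array held 8, 11, 6 and 19 of the 44 piRNAs, against 1896, 1938, 1964 and 1879 other always detected probes. In the bottom band, rows 399 to 532, the other probes had a median log2 difference of 0.13, against -0.090, -0.056 and -0.030 in the bands above it. A patch at the edge, rows 239 to 249 and columns 79 to 85, held DQ742514, DQ734235, DQ620523 and DQ731854 among 15 always detected piRNA probes. The other 11 probes of that patch had a median difference of 0.63, between -0.094 and 1.35. For 4 of the 11 the strains did not overlap, with GK above, against 7.52% of all 7721 probes. The patch was picked after the positions were seen. Spots within 2 rows and 2 columns of a member, not members themselves and always detected, numbered 180, with a median difference of 0.11 against -0.017 for all others.

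When each array was centred anew within 16 fields, 4 by 4, on the always detected piRNA probes of the field, 29 of the 44 still met the rule and 36 probes met it in all. The median difference over the 44 was then 1.18. Members that no longer met the rule included DQ734235, DQ620523 and DQ731854 of the patch and the bright DQ603795, while DQ742514, DQ626089 and DQ743986 still met it. This centring was chosen after the positions were seen, and the part of array position in the strain difference was not tested further.

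The remaining 16 members fell outside the rule for naming and are given to complete the set. Their folds ran from 1.66 to 3.85 and their gaps from 0.51 to 0.94. Besides DQ620480, the larger folds among them were in DQ754193, DQ759793 and DQ614248. DQ754193 had -0.27, -0.96 and -0.88 in Wistar and 0.37, 0.78 and 1.27 in GK (2.85-fold, difference 1.51, SE 0.33). DQ759793 had -1.73, -1.67 and -2.50 and -0.93, -0.15 and -0.37 (2.81-fold, difference 1.49, SE 0.34). DQ614248 had -1.53, -1.27 and -2.67 and -0.61, -0.18 and -0.22 (2.81-fold, difference 1.49, SE 0.40). In DQ759793 and DQ614248 a low value on Wistar 3 widened the mean difference without changing the gap.

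Lower folds, of 2.53, 2.45 and 2.43, were those of DQ735487, DQ627658 and DQ609694. DQ735487 had 0.65, 0.03 and -0.72 in Wistar and 1.18, 1.40 and 1.41 in GK, a difference of 1.34 (SE 0.37). DQ627658 had -1.23, -1.27 and -1.51 and -0.31, 0.061 and 0.12, a difference of 1.29 (SE 0.25). DQ609694 had -1.18, -1.91 and -1.50 and -0.20, -0.44 and -0.10, a difference of 1.28 (SE 0.28). The GK values were close together in DQ735487 and DQ609694, and the Wistar values of DQ735487 spread over more than 1 log2 unit, from highest on Wistar 1 to lowest on Wistar 3.

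DQ611317, DQ761301 and DQ620523 came next, at 2.05-fold, 2.00-fold and 1.93-fold. DQ611317 had 0.063, -0.12 and -0.41 in Wistar and 0.71, 0.88 and 1.05 in GK, a difference of 1.03 (SE 0.25). DQ761301 had -0.59, -0.85 and -1.23 and -0.077, 0.25 and 0.16, a difference of 1.00 (SE 0.27). DQ620523 had -1.63, -1.52 and -1.54 and -0.94, -0.60 and -0.30, a difference of 0.95 (SE 0.26). In each of them GK 1 was the lowest GK array.

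The smallest folds of the set were in DQ605828, DQ751295, DQ760956, DQ623218, DQ747580 and DQ748053, at 1.82, 1.77, 1.75, 1.69, 1.67 and 1.66. DQ605828 had 1.14, 1.35 and 1.48 in Wistar and 2.09, 2.34 and 2.12 in GK. DQ623218 had 1.81, 1.82 and 1.76 in Wistar and 2.34, 2.69 and 2.63 in GK. Both were among the brighter piRNAs of the set, and the Wistar values of DQ623218 were nearly equal. DQ751295 had -0.82, -0.77 and -1.20 in Wistar and -0.21, -0.12 and 0.00092 in GK. DQ760956 had -1.68, -1.47 and -1.30 in Wistar and -0.79, -0.46 and -0.78 in GK. DQ747580 had -0.28, -0.12 and -0.059 in Wistar and 0.47, 0.78 and 0.50 in GK. DQ748053 had -0.80, -0.82 and -0.90 in Wistar and -0.22, -0.017 and -0.079 in GK, the smallest difference of the 44 at 0.73 (SE 0.22). In each of these 6 piRNAs the arrays of a strain lay close together, within 0.44 in Wistar and within 0.36 in GK.

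The rule used all 6 arrays, so no array stands outside it. The gap can be taken on 5 arrays and the value of the array left out then read, although detection on all 6 arrays was still required. The array left out is compared with arrays that chose the probes. Shares above those of all probes are therefore partly built in, and they test nothing. Without GK 1, 353 probes had a gap of at least 0.5, and on GK 1 itself 176 of them (49.9%, against 19.5% of all 7721) lay above every Wistar array, with a median difference of 0.25 on GK 1 against 1.14 on the arrays that chose them. Without Wistar 1, 167 probes were chosen and Wistar 1 lay below every GK array for 100 (59.9%, against 23.1% of all), with a median difference of 0.42 against 1.21. The array left out lay beyond every array of the other strain, in the direction of the rule, for 64 of 72 probes without Wistar 2 (25.1% of all), 67 of 82 without Wistar 3 (33.1%), 61 of 64 without GK 2 (29.9%) and 52 of 70 without GK 3 (29.2%). The 44 make up 12.5% of the probes chosen without GK 1 and 68.8% of those chosen without GK 2, and GK 1, followed by Wistar 1, kept the largest numbers of probes out of the set. The choice without GK 1 sets Wistar arrays of slide 1 against GK arrays of slide 2, where strain and slide cannot be told apart.

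The authors' deposited table lists 128 piRNAs as higher in GK, with limits of 2 on the fold and 0.05 on the unadjusted p. Of the 44, 27 (61.4%) are in it as higher, against 0.79% of all probes always detected, and they make up 21.1% of that list. The authors drew it from the same arrays, so the overlap is no independent evidence. In the authors' deposited table the folds of the 27 run from 2.01 to 7.52 with a median of 2.50, and the highest are those of DQ752457 (7.52), DQ745279 (6.26), DQ623346 (5.74) and DQ624208 (5.43). The 17 others include DQ624964, DQ616367, DQ608794, DQ734788 and DQ744356. On the deposited matrix 16 of the 17 were under 2-fold, and DQ744356, at 3.57-fold, was the exception, with a p above the authors' limit. Among the 17 is DQ626089, the brightest of the 44, at 1.83-fold on that matrix.

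In the limma fit over 11408 probes, 0 of the 44 passed an adjusted p of 0.05, where 0.0438% of all probes passed as higher in GK. The adjusted p of the 44 lay between 0.118, for DQ624208, and 0.491. All 44 had an unadjusted p under 0.05 in limma, against 4.7% of all probes as higher in GK. The rule used the same contrast, so nothing is read from these counts. Without GK 1, 5 of the 44 passed (0.175% of all probes as higher in GK), which were DQ623346, DQ624208, DQ752457, DQ745279 and DQ758562, with adjusted p between 0.0279 and 0.0455 in limma. That fit sets slide 2 against slide 1 as much as GK against Wistar.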

How the data were processed

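The 44 members, the lists and the tests were chosen with earlier results of these data known. Values were read from 6 scanner files, 3 per strain. Per the file headers, Agilent Feature Extraction 11.0.1.1 made them, and background was subtracted from the processed intensity on each array, with no normalization between arrays. The flags the authors deposited with it (other values, 0 or 1) mark spots well above background or outlying. The deposited matrix holds the authors' log2 values, with a normalization not given in the sources used. The authors' deposited table gives their fold (a ratio) and their p-value.

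All values here are log2 processed signals minus the array's median over the 7721 piRNA probes always detected. That scale was kept for the fit in place of the 75th percentile, which is an alternative. SE and p come from limma 3.58.1 in R 4.3.3 (lmFit and eBayes with a term for strain, adjusted by Benjamini-Hochberg) over 11408 probes well above background on at least 3 arrays, tested on simulated data. Spots of probes with several spots were averaged. The labels say RNA was extracted individually, but do not say that each sample is a separate animal, so the spread may be partly technical. The number of arrays limits the precision.

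Named piRNAs were the 10 widest gaps, the 5 brightest and 5 dimmest, the 4 on each side of the threshold, the 4 with the narrowest GK range, the 4 with GK 1 farthest above and the 4 farthest below GK 2 and GK 3. Members past the adjusted threshold, up to 5 absent from the authors' list and members within 3 accessions of each other were named too. Sequence groups of the plan were not analysed here. The headers identify the scan and the array position but not the slide, so arrays of one scan were taken to share a slide. The normexp setting used median spot signals with an offset of 50. Other scalings, detection limits, separations, outlier spots, left-out arrays, the slide and the replicate number were tried.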

Additional observations from a re-analysis of the deposited data

How the results depend on the processing

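The 44 members kept a positive median difference under every setting tried. The 32 named piRNAs (28 of them members) kept a positive difference in the alternatives computed for each of them, field centring included. Because their strains lay apart by the rule's gap or just under it, that sign is built in for several settings. These are the left-out arrays, the slide block and the scalings that shift whole arrays, where the sign tests nothing. The number of probes that meet the rule depends on the scaling. It was 77 with the 75th percentile over probes detected on all arrays (44 of them members), 9 with that percentile over all non-control probes (9 members), 17 without scaling (16 members) and 7 with normexp (7 members). These first 3 scalings move the median over the 7721 probes from -0.014 to 0.14, -0.34 and -0.24 and leave the median of the members 1.22 above it, so their counts follow by construction. The members' median was 0.88 under that second percentile and 0.54 under normexp. With the normexp offset of 50, a smaller difference of dim spots is partly built in. Quantile normalization gave 51 probes (36 members) and the authors' matrix 56 (38 members). No minimum separation gave 579 probes, a separation of 1 gave 8 (8 members), and detection on at least 3 arrays gave 107. Centring within 16 fields, chosen after seeing the data, kept 29 members. Leaving out one array at a time gave 64 to 353 probes, with 167 without Wistar 1, 72 without Wistar 2, 82 without Wistar 3, 353 without GK 1 and 70 without GK 3, always with the 44 among them by construction, and a members' median of 1.06 to 1.26. The count of members past the adjusted threshold in limma was 0 to 5, with the 5 without GK 1. In every other limma setting, the slide as a block included, it was 0. The labels name no pairing of same-numbered arrays. Their deviations from the strain means correlated at -0.024, 0.037 and 0.044, which does not settle whether they were handled together. A fit with replicate number as a block left the members' median at 1.20 with 0 calls. With 3 arrays a strain and dim spots near background, small differences of dim piRNAs are the least certain.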
